A study of Mus musculus with 8 samples.

Results

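The 3 genes described here are H19, Meg3 and Rasgrf1, mouse imprinted genes that lie beside DNA methylated on the copy inherited from the father. They were taken by name from the 55450 genes of the GENCODE M21 annotation (build GRCm38). Each was read as its gene body with 50 kb to either side. CpG sites were used where at least 5 reads covered them in every file, which left 1096 CpGs around H19, 1862 around Meg3 and 2122 around Rasgrf1. Whole-genome bisulfite sequencing had been made from spleen lymphocytes of C57BL/6J mice aged 6 to 8 weeks, in 4 groups of 2 samples, namely B cells and T cells of each sex. The B cells were resting CD43- cells, and the T cells were naive CD4+CD62L+ cells. No group carried a treatment or a transgene, and the cells of each sample were pooled from several animals. Both samples of a group are listed with the same deposited file, so each group is 1 measurement and the difference between B and T cells was seen once in females and once in males.

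In genomic imprinting, a mark set in the sperm or the egg is kept on 1 of the parental copies of a gene in the cells of the body, and the copies then differ in activity. Most such marks are set in the egg and lie over a promoter, whereas the few set in sperm lie mostly between genes. The mark upstream of H19 blocks the insulator protein CTCF on the paternal copy, which lets enhancers beyond H19 reach Igf2, a fetal growth factor gene. The mark upstream of Meg3, a noncoding RNA gene, lies between it and Dlk1 and sets which copy of that cluster makes the noncoding RNAs. The mark upstream of Rasgrf1, which encodes an exchange factor for Ras proteins, lies beside a tandem repeat. The zinc finger protein ZFP57 holds such marks in the early embryo and binds the short sequence TGCCGC when its CpG is methylated. Where 1 copy is methylated and the other is not, the level read over both is near 50%. The strain is inbred and the files hold no reads, so the copies cannot be told apart here, and a level near 50% is not told from a mixture of cells with other levels. The bisulfite reaction also reads methylation and hydroxymethylation alike.

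A CpG was taken as intermediate when the level pooled over it and 2 measured CpGs to either side lay between 30% and 70% in all 4 files. Intermediate CpGs at most 500 bp apart were joined, and a run needed 10 of them. This gave 6 runs: 2 at H19, 3 at Meg3 and 1 at Rasgrf1. The sequences that follow come from these runs. The first 3 lie in the longer H19 run, are given in the direction of H19 transcription (minus strand), and carry in capitals a match to a core of the CTCF binding sequence, CCGCGNGGNGGCAG. The fourth is the whole short run upstream of Meg3, and the fifth is the stretch of the Rasgrf1 run with the most TGCCGC matches, with that sequence in capitals in both. The sixth is the RefSeq promoter of Meg3 (build GRCm38), with every CpG in capitals, which lies within the run at the Meg3 start.
H19 upstream, chr7:142582011-142582070, minus strand: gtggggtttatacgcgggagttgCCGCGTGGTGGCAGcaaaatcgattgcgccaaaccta
H19 upstream, chr7:142580741-142580800, minus strand: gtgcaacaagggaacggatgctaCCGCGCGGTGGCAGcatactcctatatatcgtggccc
H19 upstream, chr7:142580286-142580345, minus strand: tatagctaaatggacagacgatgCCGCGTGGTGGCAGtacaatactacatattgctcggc
Meg3 upstream, chr12:109528306-109528453, plus strand: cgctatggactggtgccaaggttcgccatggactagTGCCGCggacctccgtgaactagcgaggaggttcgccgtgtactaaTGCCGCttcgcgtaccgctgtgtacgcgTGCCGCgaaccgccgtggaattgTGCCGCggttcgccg
Rasgrf1 upstream, chr9:89879595-89879894, plus strand: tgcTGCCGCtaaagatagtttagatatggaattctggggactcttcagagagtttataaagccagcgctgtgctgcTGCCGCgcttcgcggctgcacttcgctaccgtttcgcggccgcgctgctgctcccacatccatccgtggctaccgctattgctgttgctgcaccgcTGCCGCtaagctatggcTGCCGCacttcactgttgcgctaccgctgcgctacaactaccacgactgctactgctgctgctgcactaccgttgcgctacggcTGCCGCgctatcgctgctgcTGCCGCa
Meg3 start, chr12:109540746-109541045, plus strand: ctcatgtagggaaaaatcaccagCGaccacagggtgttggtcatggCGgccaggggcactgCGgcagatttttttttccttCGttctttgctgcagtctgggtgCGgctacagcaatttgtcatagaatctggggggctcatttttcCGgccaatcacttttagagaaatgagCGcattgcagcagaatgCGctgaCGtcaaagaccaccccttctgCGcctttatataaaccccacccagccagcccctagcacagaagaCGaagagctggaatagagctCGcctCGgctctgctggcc

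The 4 files were of similar depth, with a mean of 14.6 to 17.7 reads per CpG, and 18216084 autosomal CpGs passed in all of them. The cell labels were checked at promoters, taken as 1 kb to either side of the annotated start. Calls, here and for windows, needed both a Benjamini-Hochberg adjusted p under 0.05 and cell types 20 or more percentage points apart on average. Of 7 B cell markers, 6 were called lower in B cells, and all 8 T cell markers were called higher in B cells. Of 8 markers of other cells, 2 were called, Cd8a and Cd8b1, both higher in B cells. Among the uncalled ones were the myeloid markers Lyz2, Itgam and Csf1r, which did not move together. Lyz2 had a mean difference of -19.3 points (adjusted p = 0.012). Its level was 41.5% (females) and 50.7% (males) for B cells, while T cells had 64.1% and 66.7%. Itgam differed by 4.79 points, the other way, and Csf1r by -3.39 points. The part of Lyz2 in the results was not tested.

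Both H19 runs lie within 5 kb of the gene, a noncoding RNA gene at chr7:142575529-142578143 on the minus strand. The upstream run, at chr7:142580090-142582190, was intergenic and began 1947 bp before the H19 start and ended 4047 bp before it. It spanned 2101 bp and 67 CpGs, 61 of them intermediate, and all 67 CpGs of the reference sequence there were measured. In females its level was 56.7% in B cells and 45.9% in T cells, and in males it was 52.5% and 53.3%. The 3 CTCF matches printed above stood 2166, 2621 and 3891 bp before the start. In the match nearest to H19 the CpGs were methylated at 56.8% and 30.8% in B and T cells of females and at 47.6% and 47.8% in those of males, from 37 to 52 reads. In the middle match they were at 71.4%, 47.7%, 41.6% and 31.3% in the same order, from 42 to 77 reads. In the farthest they were at 50%, 38.3%, 66.1% and 44.6%, from 22 to 56 reads. The levels thus spanned 30.8% to 71.4%, and no file was the highest at all 3 matches. B cells stood above T cells in both sexes at the middle and farthest matches, and in females alone at the nearest.

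Outside this run the level rose on both sides, to 72.7% to 83.2% in the 1 kb nearer the gene and 79.7% to 83.5% in the 1 kb farther away. The first CpG past the outer edge with a pooled level of 80% or more in every file lay 329 bp away, and on the gene side 898 bp away. With steps of at most 250 bp the run split, and the piece with the most intermediate CpGs was 1054 bp. The second H19 run, at chr7:142577979-142578717, covered the start itself, from 574 bp before it to 164 bp after it. It held 24 CpGs over 739 bp, 15 of them intermediate. In females its level was 49.4% in B cells and 67.2% in T cells, and in males 45.4% and 54.2%, so that both B cell files lay below both T cell files. Towards the gene body the separation varied. In the first 250 bp of the gene, B cells stood at 59.3% in females and 58.2% in males, and T cells at 66.7% and 69.4%, over 5 CpGs. In the 250 bp that begin 250 bp after the start, B cells stood at 60.5% in females and 62.2% in males, and T cells at 86.5% and 84.4%, over 10 CpGs. In the next 250 bp all 4 files lay between 80.8% and 86.5%. Mir675, a microRNA carried by the H19 transcript, and Gm27786, annotated only as a miscellaneous RNA, also start within 1 kb of this run.

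**Figure D1:**
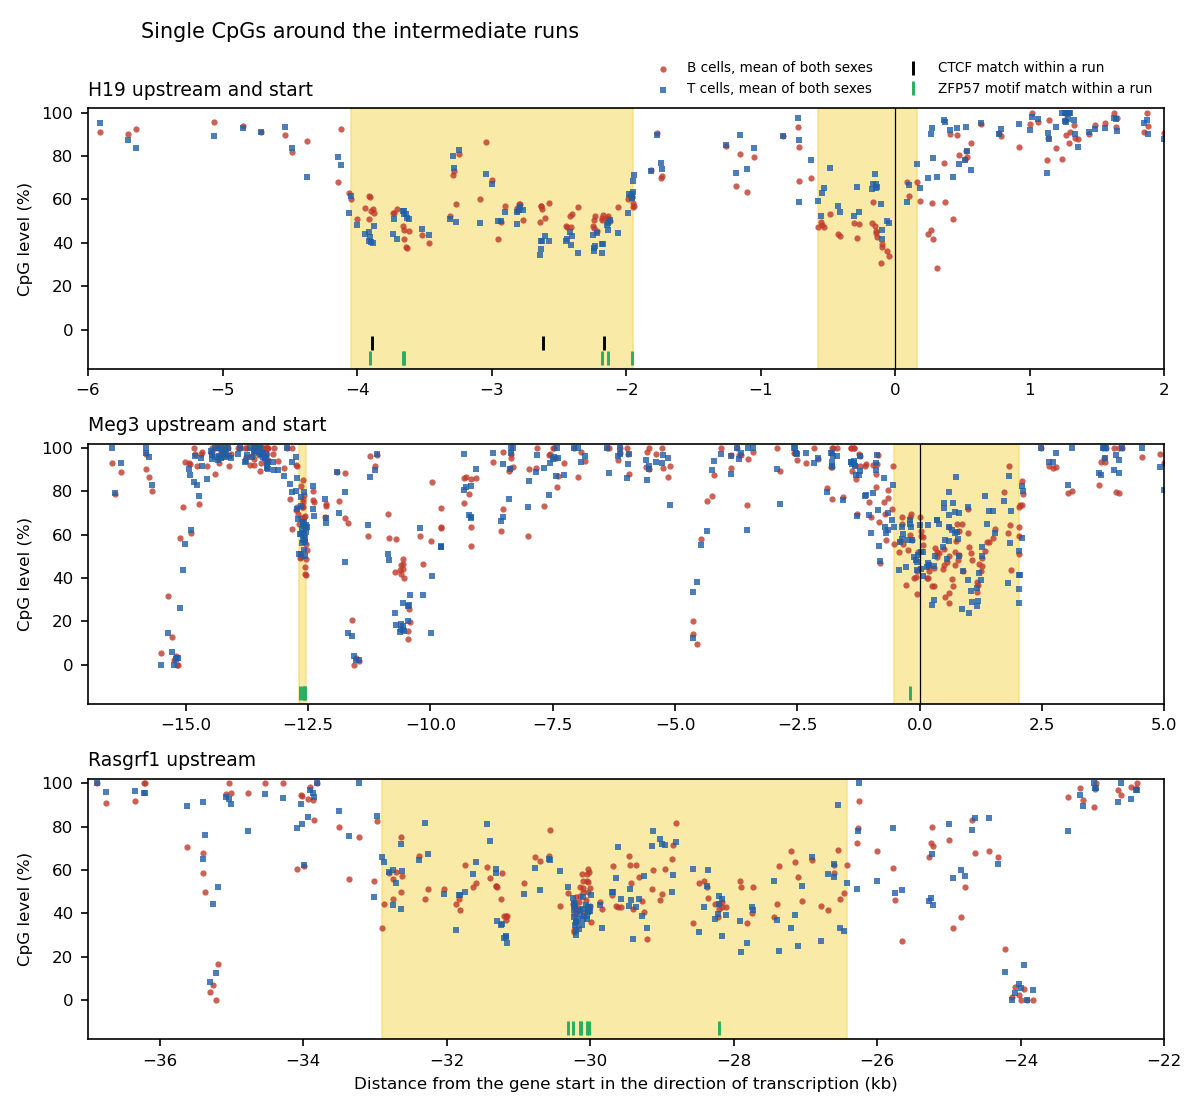
Level of single CpGs (y axis, %) against distance from the gene start in the direction of transcription (x axis, kb), as the mean of the female and male file for B cells (red circles) and T cells (blue squares). Yellow spans are the intermediate runs, black ticks the 3 CTCF matches and green ticks the TGCCGC matches within runs. Red points sit below blue ones around the H19 start, whereas the colours mix within the H19 and Rasgrf1 upstream runs.

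At Meg3, on the plus strand at chr12:109541001-109571726, the longest run covered the gene start. It lay at chr12:109540467-109543031, from 534 bp before the start to 2030 bp after it, and held 76 CpGs over 2565 bp, 53 of them intermediate. The female files gave 52.4% for B and 54.3% for T cells, and the male files 51.9% and 56.1%. Gm27596, a gene within Meg3 annotated only as a miscellaneous RNA, starts inside the run. In the Meg3 promoter printed above, the 13 CpGs stood at 52.0% and 49.6% in female B and T cells and at 54.9% and 59.2% in male ones. The level in the 1 kb before the run was 77.1% to 87.1%, and in the 1 kb after it 61.0% to 78.8%.

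The run between Dlk1 and Meg3 was the shortest, with 148 bp at chr12:109528306-109528453, 12548 to 12695 bp before the Meg3 start. It packed 22 CpGs, 13 of them intermediate, at a median step of 5 bp, with 1.45 times the CpGs that its base composition would give. Its level was 60.7% in B and 62.3% in T cells of females, and 65.8% and 60.9% in those of males. It sat at the end of a stretch that was nearly fully methylated: the 37 CpGs in the 1 kb farther from Meg3 were at 92.8% to 94.0%. In the 1 kb on the Meg3 side the level was 57.0% to 66.2%. Farther towards Meg3 low and high stretches alternated. The 250 bp that begin 11250 bp before the start were at 87.9% to 97.7%, over 3 CpGs. In the 250 bp that begin 10750 bp before the start the females had 57.6% in B and 22.6% in T cells and the males 33.2% and 15.3%, over 9 CpGs. A low stretch also lay on the far side of the methylated one, at 4.08% to 29.2% in the 250 bp that begin 15500 bp before the start, over 3 CpGs. The zone upstream of Meg3 was thus uneven in all 4 files.

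The third run of the Meg3 region, at chr12:109612341-109613811, lay in an intron of Rian, a noncoding RNA gene of the same cluster that carries small nucleolar RNAs. It stood 71340 to 72810 bp after the Meg3 start and held 41 CpGs over 1471 bp, 33 of them intermediate. Its level was 50.6% in B and 49.0% in T cells of females and 45.4% and 50% in those of males, the closest to 50% of the 3 Meg3 runs in each file but the male B cell file. The microRNA genes Mir341 and Mir1188 start 841 and 519 bp from it. The Rian promoter itself was methylated at 83.1% to 86.5%.

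The Rasgrf1 run was the longest of the 6. Rasgrf1 is on the plus strand at chr9:89909908-90026977, and the run lay in intergenic DNA at chr9:89877003-89883487, 26421 to 32905 bp before the start. It held 124 CpGs over 6485 bp, 103 of them intermediate, and 119 had a mean level over the files between 30% and 70%. Female B and T cells had 51.1% and 44.7%, and male ones 48.8% and 47.3%. On its outer side the adjoining 1 kb was at 81.5% to 86.6%, and the first CpG pooled to 80% or more in every file was 908 bp away. On the gene side the 1 kb was at 47.8% to 70.2%, and that distance was 3251 bp. The edges depended on the rule for runs. The piece with the most intermediate CpGs was 2126 bp long with steps of at most 250 bp, 2903 bp with 10 reads per CpG and 9884 bp with a band of 25% to 75%. The 300 bases printed above held 28 CpGs at 45.6% and 40.8% in the B and T cells of females and 46.5% and 36.9% in those of males, each from 412 to 781 reads. Repeat masking covered 25.6% of this run, against 0 to 11.5% of the others. The Rasgrf1 promoter was nearly free of methylation, at 4.11%, 3.21%, 3.38% and 3.48% in the same order.

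**Figure D2:**
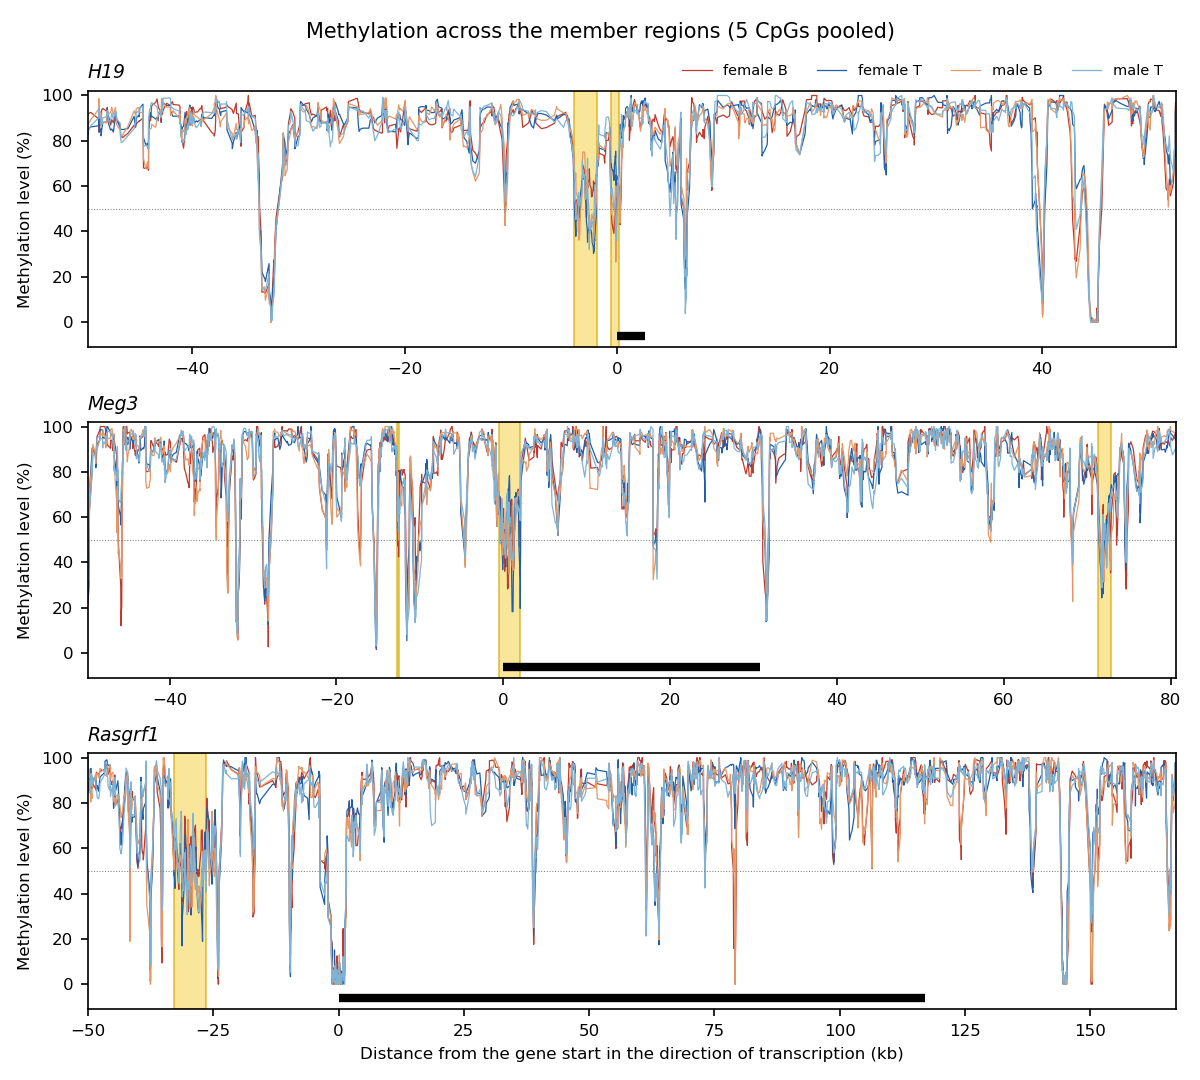
Methylation level pooled over 5 CpGs (y axis, %) across the 3 regions, against distance from each gene start in the direction of transcription (x axis, kb), 1 line per file. Yellow spans are the 6 intermediate runs, the black bar is the gene and the dotted line marks 50%. The lines of the 4 files run close to 90% over most of each region and fall at the runs and at narrow dips. At some dips, such as the called windows in the Rasgrf1 gene body, the lines of B and T cells part.

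The TGCCGC sequence was searched on both strands. It occurred 6 times in the H19 upstream run, 2 of these overlapping a CTCF match, 4 times in the short Meg3 run, once each in the Meg3 start and Rian runs, 7 times in the Rasgrf1 run and at no place in the H19 start run. Of autosomal stretches of 148 bp, 0.916% held it at least once and 0.000445% as often as the short Meg3 run. Among those with at least as many CpGs as that run, the shares were 25.7% and 0.113%. Of stretches of 6485 bp, 29.8% held it and 0.0574% held it 7 times or more, and with at least as many CpGs as the Rasgrf1 run 82.5% and 1.48% did. For the H19 upstream run 62.6% of such CpG-matched stretches held it and 0.756% held it 6 times or more. At the runs with fewer matches, 68.2% of matched stretches for the Meg3 start, 51.5% for Rian and 38.8% for the H19 start held the sequence. The CTCF core was found in the H19 upstream run alone among the 6, while 0.00474% of autosomal stretches of 2101 bp held it, and 0.209% of those with at least as many CpGs. The core is an exact pattern of 14 letters, so CTCF sites with other letters were not counted. Its rarity is not that of CTCF sites, and whether the other runs hold such sites was not tested. These are counts of letters. The small groups of CpGs in single matches varied widely between files, for example from 36.4% to 81.8% at the last match of the Rasgrf1 sequence, each from 11 to 21 reads.

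The runs were picked for a level near 50%, so their levels are a description. The share of intermediate CpGs was 9.31% around H19, 8.70% around Meg3 and 8.95% around Rasgrf1, against 2.87% of all autosomal CpGs. By the same rule the autosomes held 4961 runs, with a median of 12 intermediate CpGs. The Rasgrf1 run ranked 9th by intermediate CpGs, the H19 upstream run 25th and the Meg3 start run 35th. The Rian run ranked 93rd, whereas the H19 start and short Meg3 runs, with 15 and 13 intermediate CpGs, were close to the cutoff of 10. With a band of 35% to 65% these 2 were no longer found.

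**Figure D3:**
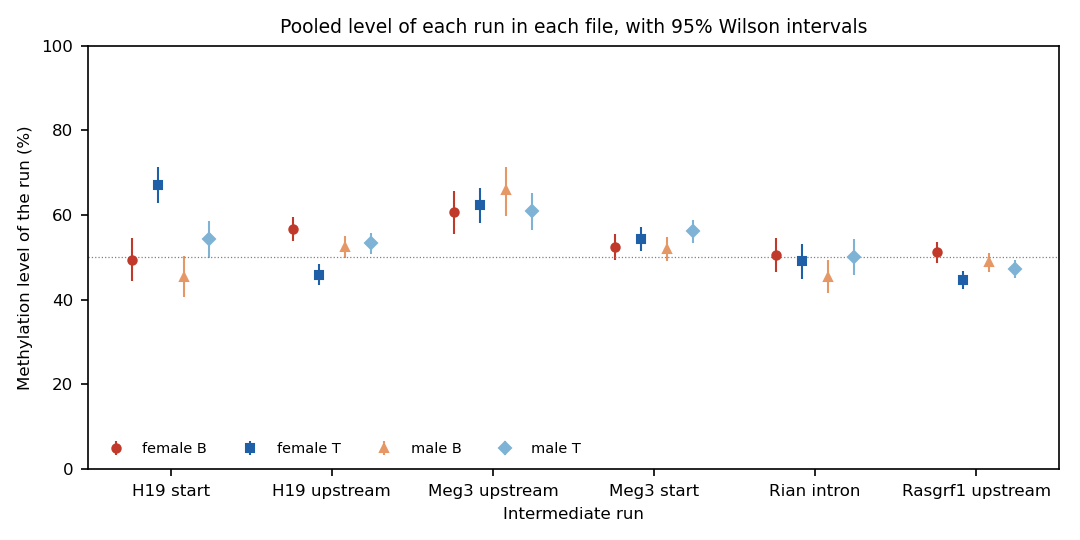
Pooled methylation level of each run (y axis, %) in each of the 4 files, with 95% Wilson intervals as bars. The intervals of the 4 files overlap at the Meg3 and Rian runs, and female T cells stand above the others at the H19 start and below them at H19 upstream.

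The intervals drawn count every read at every CpG as separate, so they cover counting error only and are too narrow where 1 fragment spans several CpGs. At the H19 start run, the level in B cells less that in T cells was -17.7 points for females and -8.81 for males. It was 10.8 and -0.836 at the H19 upstream run, -1.59 and 4.86 at the short Meg3 run, -1.91 and -4.23 at the Meg3 start, 1.55 and -4.59 in Rian, and 6.43 and 1.55 at Rasgrf1. The sign was thus the same in both sexes at 3 of the 6 runs. Within a run, the CpGs of any 2 files were only loosely related, with a correlation across CpGs of -0.02 to 0.62 over all runs. This is a description across neighbouring CpGs that share fragments. The variance across CpGs was 0.55 to 2.25 times that of counting alone.

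B cells were compared with T cells over fixed 1 kb windows with at least 3 CpGs, by a quasi-binomial model of the reads with sex as a second term. The p-values were adjusted over all windows of the genome. Of 434 windows in the 3 regions, 8 were called (1.84%), against 2.08% of all windows, so these regions held calls at about the genome's rate. The median absolute difference was 2.18 points in the regions and 2.26 over the genome. Of the 434, 301 were at 80% or more and 6 at 20% or less in every file. There were 7 called windows lower in B cells (0.913% of all windows were) and 1 higher (1.16%), but with 500 bp windows the split was 14 lower and 6 higher. H19 had 2 called windows, Rasgrf1 6 and Meg3 none. At Meg3, 22 of 130 windows had an unadjusted and 7 an adjusted p under 0.05, these 7 with a smaller difference. Over the 3 regions these counts were 78 and 31 of 434. The share of all windows or promoters that passed by p alone was not counted. No such count, here or below, can thus be read as an excess. Meg3 had 5 calls with 500 bp windows, where 2.74% of all windows were called. With a threshold of 10 points it had 3 of 130, where 4.19% of all windows were called. No window overlapping a run was called, of 19, and 10 had an unadjusted p under 0.05. Of these 19 windows, 4 had an adjusted p under 0.05, against 27 of the 415 windows outside runs. Runs were picked for an intermediate level in every file, which limits differences between files but leaves room for 20 points. The called window at chr9:89874001-89875000, outside the runs, was itself intermediate in every file, at 37.3% to 64.4%. Whether run windows held fewer calls than other windows was not tested.

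By limma on log2 ratios only 2 of the 8 were called, chr9:89989001-89990000 and chr9:90034001-90035000, against 1.02% of all windows, and the other 6 had limma adjusted p of 0.05 to 0.33. Mrpl23, which encodes a protein of the mitochondrial ribosome and lies beyond H19, held both calls of the H19 region. At chr7:142535001-142536000, over an exon, B cells stood at 60.6% (females) and 64.0% (males) and T cells at 89.2% and 90.7% (adjusted p = 8.6e-16). At chr7:142538001-142539000, in an intron, B cells were higher, at 47.0% and 52.9% against 26.5% and 23.6% (adjusted p = 2.1e-06). With 10 reads per CpG this second difference was 18.0 points and no longer called. These are the windows whose middles lie 42.6 and 39.6 kb after the H19 start.

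The largest differences were in the Rasgrf1 gene body. Adjoining windows at chr9:89988001-89989000 and chr9:89989001-89990000, in an intron, gave 47.1% and 51.4% in female B cells and 61.9% and 58.9% in male B cells. In T cells they gave 93.4% and 88.8% in females and 88.0% and 90.8% in males (adjusted p = 2.5e-19 and 2.1e-23). With the dispersion prior taken from all windows, the adjusted p of the quasi-binomial model was 0.00066 and 3.9e-05. In an intron farther along, at chr9:90014001-90015000, B cells were at 69.5% and 66.4% and T cells at 89.6% and 88.1% (adjusted p = 3.0e-06), a call that is lost without the male B cell file (-19.3 points). Past the end of the gene, at chr9:90034001-90035000, B cells were at 67.4% and 71.1% and T cells at 95% and 93.8% (adjusted p = 1.0e-10). In Ctsh, which encodes the lysosomal protease cathepsin H, a window over an exon at chr9:90060001-90061000 was at 23.9% and 15.9% in B cells and 55.0% and 44.7% in T cells (adjusted p = 1.0e-07). Only 1 call stood upstream of Rasgrf1, at chr9:89874001-89875000, outside the intermediate run. There B cells were at 37.3% and 44.4% and T cells at 64.4% and 60.7% (adjusted p = 4.9e-06). This call is lost without the female B cell file (-18.2 points) and without the female T cell file (-19.9 points).

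**Figure D4:**
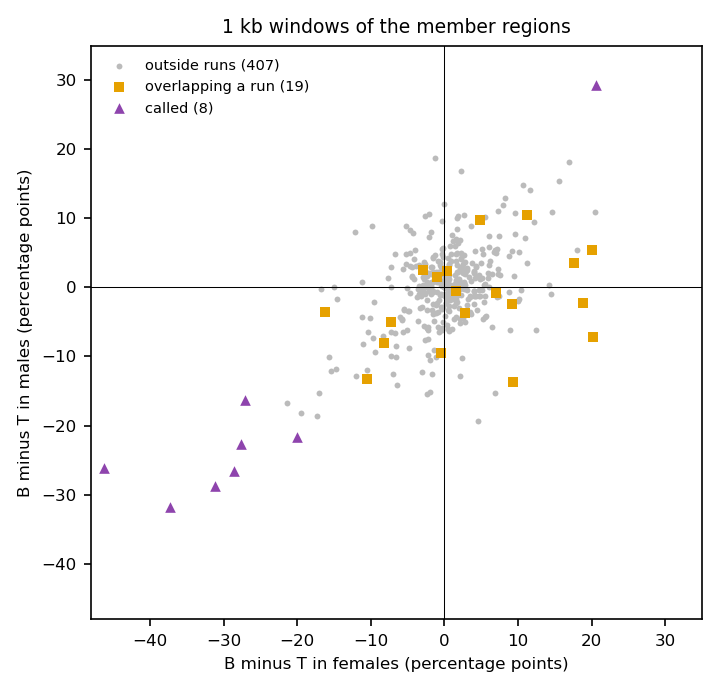
B minus T in females (x axis) against B minus T in males (y axis), in percentage points, for the 434 windows of 1 kb. Purple triangles are the 8 called windows, orange squares the 19 windows that overlap a run and grey points the other 407; 7 triangles lie in the lower left and 1 in the upper right.

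Around H19 itself some windows passed the adjusted p, but none on this 1 kb grid reached a mean difference of 20 points. The 250 bp that begin 250 bp after the H19 start, described above, did. The window at chr7:142577001-142578000, inside the gene, was at 75.5% and 72.7% in B cells and 86.0% in T cells of either sex (adjusted p = 7.9e-07). Downstream of H19 the order was the other way. At chr7:142572001-142573000, 5.6 kb past the start, B cells were at 75.9% and 76.2% and T cells at 60.4% and 60.8% (adjusted p = 5.0e-05), and the windows to either side were also higher in both B cell files. In the upstream run, the window at chr7:142580001-142581000 was at 61.2% in B and 41.0% in T cells of females and at 46.0% and 53.2% in those of males. The sexes thus went opposite ways there (adjusted p = 0.13 for cell type), and at 0.00634% of all windows the cell type difference differed between the sexes by an adjusted p under 0.05 and 20 points or more. Upstream of Meg3 the widest difference on this 1 kb grid, 50% and 33.1% in B against 29.6% and 22.2% in T cells at chr12:109530001-109531000, was under 20 points as a mean (adjusted p = 2.2e-05). Within this window, the 250 bp that begin 10750 bp before the Meg3 start were farther apart. They had 57.6% in B against 22.6% in T cells of females and 33.2% against 15.3% in those of males.

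None of the 3 members' promoters was called, against 1.59% of 51815 promoters, and 1 of them, that of H19, had an unadjusted p under 0.05. It had 62.7% (females) and 60.2% (males) in B cells and 76.9% and 68.4% in T cells. The mean difference was -11.2 points (adjusted p = 0.012, quasi-binomial model fitted to promoters apart from windows). Meg3 had 56.3% and 55.6% in B against 58.4% and 60.4% in T cells (adjusted p = 0.41), and Rasgrf1 differed by 0.397 points on average (adjusted p = 0.84). Of 11 partner genes in the same clusters none was called and 1, Dlk1, had an unadjusted p under 0.05, with 9.69% and 9.13% in B and 6.96% and 5.29% in T cells. Igf2 was at 86.4% to 88.5% and Dio3, a thyroid hormone deiodinase gene at the far end of the Dlk1 cluster, at 8.84% to 10.3%. Each gene was read at 1 start only, the outer end of its annotation, so other promoters of a gene, such as Igf2, were not read. Of 16 factors that set or keep imprints none was called and 2 had an unadjusted p under 0.05. Ctcf and the maintenance partner Uhrf1 were below 20% in every file, the oocyte and embryo factor Zfp57 was at 88.1% to 92.4%, and its relative Zfp445 was at 24.1% to 37.2%. The median absolute difference over these 30 promoters was 1.55 points.

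Between the sexes, the same quasi-binomial model called no window of the regions, against 0.00103% of autosomal windows. Of the 434, 35 had an unadjusted p under 0.05, and the genome's share by that rule was not counted. Loci methylated on the maternal copy were set beside the members with no test. All 12 listed loci (Peg3, Mest, Snrpn, Kcnq1ot1, Plagl1, Grb10, Airn, Nnat, Peg10, Zrsr1, Inpp5f and Nespas) held a run, and at 11 the one with the most intermediate CpGs covered an annotated gene start, against 1 of the 3 members. Those runs held 38 to 214 intermediate CpGs with a median of 88, over 846 to 6721 bp, and their level lay between 33.9% and 59.1% in any file. The spread between the highest and lowest file was 1.55 to 14.3 points with a median of 7.13, and it was 10.8 points at H19, 4.23 at Meg3 and 6.43 at Rasgrf1. For Meg3 this spread, like the count of gene starts, takes the run at its start. The short run upstream of Meg3 covered no gene start and stood at 60.7% to 65.8%. In every file this was above the run with the most intermediate CpGs at each of those loci. The levels of their smaller runs were not read, so short runs were not compared with each other.

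**Figure D5:**
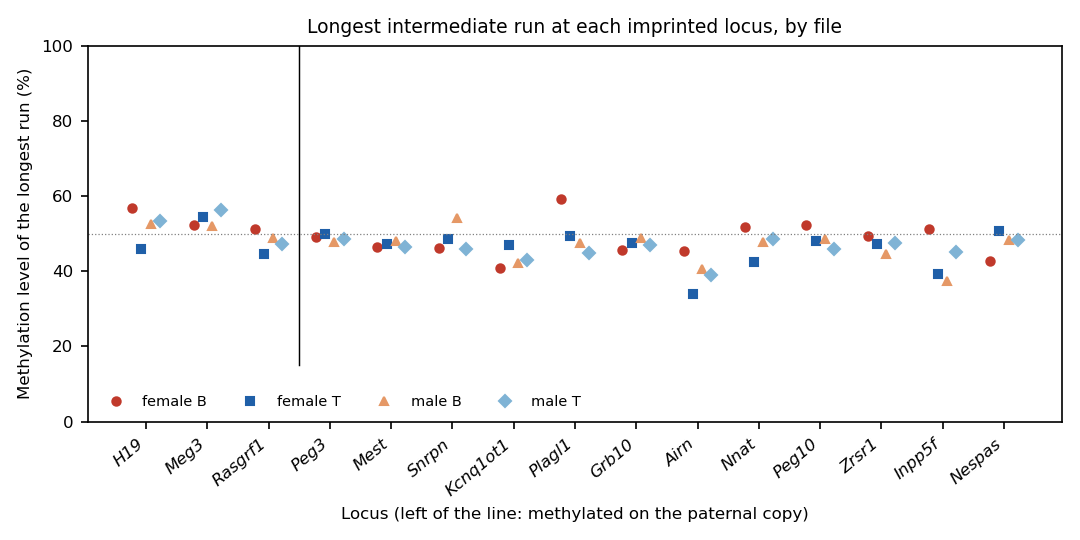
Level of the run with the most intermediate CpGs at each imprinted locus (y axis, %), 1 marker per file. The 3 members stand left of the line at 44.7% to 56.7%, within the range of the 12 loci methylated on the maternal copy to the right of it. For Meg3 the run at the gene start is drawn, and its short upstream run, at 60.7% to 65.8%, is not.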

How the data were processed

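Bisulfite sequencing was read from 4 deposited files, 1 per group, listed for 8 samples. Per the labels' processing notes, the authors used Trim Galore, FastQC and Bismark 0.13.1 on mm10. Each deposited file gives the methylation level of a CpG as a fraction and its coverage as a count of reads, with strands merged and a minimum of 5 reads. Replicates within a group cannot be compared, and whether a file holds both samples is not given in the sources used here. All other values were computed here in Python 3.11.15 and R 4.3.3 with limma 3.58.1. Methylated and unmethylated reads were modelled by quasi-binomial logistic regression with cell type and sex. The dispersion was squeezed by limma to 1.31 for every window, and p-values were Benjamini-Hochberg adjusted over 2018320 windows or 51815 promoters. Those of windows rest on this shared dispersion and not on each window's own 1 residual degree of freedom. Promoters were fitted apart, with a dispersion prior of their own. Their p-values do not rest on the value of 1.31 and cannot be set against those of windows. Windows and promoters needed 3 CpGs. Named by rule were the members, every run, genes starting within 1 kb of one, all called windows and any listed promoters that were called. The uncalled promoters named for markers, partner genes and factors fell outside this rule. So did the uncalled windows and the 250 bp stretches printed for H19 and Meg3. All of these were picked with their values known. The members and lists were chosen with earlier results of these data known. Other bands, pool sizes, depths, window sizes and tests were tried.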

Additional observations from a re-analysis of the deposited data

Results flagged for a closer look

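At the window chr7:142580001-142581000 in the H19 upstream run, the difference between B and T cells was 20.2 points in females and -7.24 in males, and these differ by 27.4 points (adjusted p = 1.5e-05 for the difference, quasi-binomial model over all windows). This comparison was chosen after the values were seen. It was 1 of 434 windows in the regions, and 0.00634% of all windows passed the same rule. Of autosomal windows at 30% to 70% in every file with 30 or more CpGs, as here, 15 of 1103 passed it (1.36%). The shared dispersion of 1.31 is low for such windows: over 1103 autosomal windows at 30% to 70% in every file with 30 or more CpGs the mean residual variance was 4.90, and 3 of them, this one included, had one as large as here. P-values that rest on the shared dispersion are thus too small in such windows, and with 1 file per group a sex and a file cannot be told apart.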

How the results depend on the processing

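The run with the most intermediate CpGs overlapped the reported one at each of the 3 genes under every alternative tried, but its edges moved. Its length was 1054 to 2119 bp at H19, 1613 to 2763 bp at Meg3 and 2126 to 9884 bp at Rasgrf1, against 2101, 2565 and 6485 bp. Its intermediate CpGs fell from 53 to 30 at Meg3 and from 103 to 64 at Rasgrf1 with a band of 35% to 65%. With steps of at most 250 bp they fell from 61 to 39 at H19 and from 103 to 55 at Rasgrf1, and with 10 reads per CpG from 103 to 42 at Rasgrf1. The other 28 of 33 alternatives were within 1.5 times, and without each file in turn the counts were 61 to 66 at H19, 55 to 70 at Meg3 and 106 to 112 at Rasgrf1. For B minus T and the level of each run only 10 reads per CpG and a mean over CpGs were tried. Both moved by less than the 95% counting interval to either side, but with 10 reads per CpG B minus T went from -3.07 to -5.12 points at the Meg3 start and from -1.52 to -3.62 in Rian. With the mean over CpGs it was -0.720 in Rian, and at the short Meg3 run it went from 1.64 to 2.46. The 8 of 434 called windows (1.84%, genome 2.08%) became 22 of 434 with a threshold of 10 points (5.07%, genome 4.19%), 20 of 695 with 500 bp windows (2.88%, 2.74%), 3 of 222 with 2000 bp windows (1.35%, 1.4%) and 2 of 434 with limma on log2 ratios (0.461%, 1.02%). With 10 reads per CpG they were 8 of 394 (2.03%, 2.61%), of which 7 were shared. Without each file in turn they were 7 to 9. The split was 7 higher and 15 lower in B cells with 10 points, and 0 and 8 with 10 reads per CpG. Meg3 had 1 call with 10 reads per CpG and 1 without the male B cell file. With a threshold of 10 points 1 of the 30 promoters, H19, was called in place of 0, against 3.48% of all promoters. No paired analysis was possible because the groups share no replicate number. Depth limits single CpGs most, and reads at neighbouring CpGs of 1 fragment are not independent.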

Other observations

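The 3 regions also held 24 windows of 1 kb outside the runs that were at 30% to 70% in every file, or 5.78% of the windows there, against 3.11% of autosomal windows. Among them, chr9:89973001-89974000 in an intron of Rasgrf1 was at 43.9% and 49.1% in B cells (females, males) and 35.7% and 36.1% in T cells. In Rian's neighbour Rtl1, a retrotransposon-derived gene expressed from the paternal copy, the window at chr12:109599001-109600000 was at 64.3% to 66.3%. With its middle 33.4 kb upstream of the H19 start, the window at chr7:142611001-142612000 over an exon of Gm33148 was at 36.7% to 45.2%. These 3 windows were named after their values were seen.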
